A study of Mus musculus with 2 samples.

Results

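Interferon-stimulated genes are the transcripts that cells make in answer to interferons, and a list of 37 of them, given by symbol, was followed here. Of these symbols, 36 matched 1 of the 32286 features counted, and Mx1 was not analysed here. The cells were satellite cells, the stem cells of skeletal muscle, sorted by FACS from the biceps and recto femoris of Pax3GFP/+ mice, in which GFP is made from the locus of the transcription factor PAX3. Muscle was taken 5 days after injury, and the sort gave GFP+ cells, called PAX3+ in the labels, and GFP- cells, called PAX3-. Each fraction became a single droplet-based 3' single-cell RNA library. Both fractions are labelled with the reporter allele, while their genotype field reads wild-type. The labels used here give neither the number of animals nor which cells came from which muscle. With 1 library a fraction there is no replicate, so no test between groups was made, and every difference is one between these libraries.

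Type I interferons bind the receptor IFNAR1-IFNAR2, and the kinases JAK1 and TYK2 then activate STAT2, which joins IRF9 in a complex that binds the interferon-stimulated response element (ISRE) of target promoters. Interferon gamma binds IFNGR1-IFNGR2 and acts on the gamma-activated site (GAS). The products include sensors of foreign RNA and DNA, factors that extend the response, enzymes that block viral replication, GTPases that attack the vacuoles of intracellular microbes, and membrane proteins that hinder viral entry or release. Injured muscle holds macrophages beside the satellite cells, and mural cells (pericytes and smooth muscle) around its vessels.

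Promoter sequence from RefSeq (build GRCm38.p6) was found for 29 of the 36 members, and the 250 bases before each listed start were searched on both strands. The ISRE was written as GAAANNGAAA and the GAS as TTCNNNGAA, where N is any base. ISRE letters stood before 15 of the 29 members (51.7%), against 936 of all 27025 genes in the table (3.46%). GAS letters stood before 7 of the 29 members (24.1%), against 2197 of all genes (8.13%). Among the 9 type I effectors with a promoter, Ifit1, Ifit3, Ifit3b, Isg15, Rsad2 and Oas1a held ISRE letters, as did all 5 GTPase genes with a promoter, Igtp, Irgm1, Gbp2, Gbp3 and Gbp7. Such letters describe the sequence and are no measure of binding. The promoters of 4 members are printed because these genes mark different behaviour from cell to cell: Ifit3 and Isg15 followed the rest of the list closely, Irf1 followed it little, and Ifitm3 gave the most counts. Capitals mark ISRE letters in Ifit3 and Isg15 and GAS letters in Irf1, and the Ifitm3 window holds neither. These 4 were picked and do not stand for the list. Ifitm2 has ISRE letters but was only 1.22-fold higher in GFP- myogenic cells high for the other members. Ifi44 and Irf7 have none in this window and were 18.8-fold and 10.6-fold higher there. Any link of the letters with behaviour was not tested.
Ifit3, chr19:34583279-34583528, plus strand: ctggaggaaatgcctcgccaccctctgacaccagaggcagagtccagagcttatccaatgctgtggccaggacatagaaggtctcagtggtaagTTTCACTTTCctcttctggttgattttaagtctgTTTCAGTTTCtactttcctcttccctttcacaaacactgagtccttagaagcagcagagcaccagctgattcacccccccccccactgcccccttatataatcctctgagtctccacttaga
Isg15, chr4:156200819-156201068, minus strand: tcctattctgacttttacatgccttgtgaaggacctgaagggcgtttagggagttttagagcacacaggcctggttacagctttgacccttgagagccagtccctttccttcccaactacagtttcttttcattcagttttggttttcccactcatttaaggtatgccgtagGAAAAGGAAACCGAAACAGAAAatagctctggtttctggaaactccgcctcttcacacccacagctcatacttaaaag
Irf1, chr11:53769764-53770013, plus strand: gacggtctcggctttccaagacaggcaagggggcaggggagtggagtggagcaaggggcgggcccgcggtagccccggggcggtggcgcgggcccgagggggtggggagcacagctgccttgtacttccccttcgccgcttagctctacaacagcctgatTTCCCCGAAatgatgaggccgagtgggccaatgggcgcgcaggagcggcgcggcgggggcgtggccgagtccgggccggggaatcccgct
Ifitm3, chr7:141010745-141010994, minus strand: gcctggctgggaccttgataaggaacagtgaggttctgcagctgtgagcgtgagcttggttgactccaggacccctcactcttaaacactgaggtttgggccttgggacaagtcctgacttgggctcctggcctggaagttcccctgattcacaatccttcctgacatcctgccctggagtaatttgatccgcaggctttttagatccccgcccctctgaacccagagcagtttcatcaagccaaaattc
In Ifit3 the motifs began 156 and 122 bases before the start. In Isg15 3 overlapping copies began 78, 72 and 66 bases before it, and in Irf1 the GAS letters began 90 bases before the first of its 2 listed starts.

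Barcodes were kept as cells with 1000 or more UMIs (unique molecular identifiers, each a captured transcript), 500 or more genes and no more than 10% of UMIs from mitochondria, which left 604 cells in the GFP+ and 2683 cells in the GFP- library. Cell classes were set by gates on genes outside the list: at least 5 UMIs of Lyz2 (lysozyme of macrophages), at least 5 UMIs of Rgs5 (a mural cell gene), or at least 5 UMIs summed over 7 myogenic genes. The GFP+ library held 73 Lyz2-positive, 0 Rgs5-positive and 487 myogenic cells, and the GFP- library 47, 102 and 2389. A sum of 10 macrophage markers, Lyz2 included, was at 43048 and 43621 CPM (UMIs per 1000000 UMIs of the group) in GFP+ and GFP- Lyz2-positive cells, against 16.7 and 8.49 CPM in GFP+ and GFP- myogenic cells. A sum of 8 mural markers, Rgs5 included, was at 20703 CPM in Rgs5-positive cells, against 1662 CPM in GFP- myogenic cells. The 5 T and NK cell markers were at 0 UMIs in the Lyz2-positive and Rgs5-positive cells. Endothelial markers summed to 108 CPM in Rgs5-positive cells, against 0.526 CPM in GFP- myogenic cells, with all 5 detected. Fibro-adipogenic markers summed to 811 CPM in Rgs5-positive cells, where Col1a1 gave 752 of 796 UMIs, and to 283 CPM in GFP- myogenic cells. They summed to 163 CPM in GFP+ and 443 CPM in GFP- Lyz2-positive cells, mostly from Ly6a. Dendritic cell markers summed to 60.3 CPM in GFP+ and 94.9 CPM in GFP- Lyz2-positive cells, with 4 of 5 detected in each, and neutrophil markers to 34.1 and 31.6 CPM. The part of such cells in the class levels was not tested. Median depth per class ran from 7808 UMIs in GFP- Lyz2-positive to 20478 UMIs in GFP+ myogenic cells, and 2 cell barcodes occurred in both libraries.

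Interferon-stimulated genes made up nearly the same share of transcripts in PAX3+ and PAX3- myogenic cells. The 36 members summed to 2442 CPM in GFP+ and 2491 CPM in GFP- myogenic cells, a ratio of 0.9805 with a 95% counting interval of 0.967 to 0.994. All intervals here are exact and cover counting error only, and they are too narrow, because members varied between cells by more than counting error. Most of the summed counts came from few members. Ifitm3, which blocks the entry of enveloped viruses, gave 44.5% of the list's UMIs in GFP+ and 47.6% in GFP- myogenic cells. Ifitm2, its paralog, gave 15.8% and 15.1%, and Ifi27, a gene induced by interferon alpha, gave 9.39% and 8.58%. Reads of the near-identical Ifitm, Ifit3-Ifit3b and Gbp copies may have been split or lost in counting, so values of single copies are uncertain.

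The same transcripts were present outside cells at like levels. In empty droplets (barcodes of 1 to 100 UMIs) the members summed to 2945 CPM in the GFP+ and 2743 CPM in the GFP- library, so that myogenic cells over empty droplets had ratios of 0.829 (0.803 to 0.857) and 0.908 (0.889 to 0.928). In the GFP+ library 0 of 23 members that passed the filter (a mean of 10 CPM or more over both groups) were at least 1.5-fold higher in myogenic cells (background 14.6% of all genes that passed) and 6 were lower (background 10.1%). In the GFP- library 0 of 26 were higher (background 6.11%) and 3 were lower (background 6.6%), among them Irf7 and Trim25. The 10 macrophage markers summed to 16.7 CPM in GFP+ and 8.49 CPM in GFP- myogenic cells, against 6165 and 1187 CPM in empty droplets of the GFP+ and GFP- libraries. This sum includes Lyz2, which the gates hold low in myogenic cells. How far free RNA adds to the member levels of myogenic cells was not tested.

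Between the sorted fractions, 25 members passed the filter in myogenic cells. Of these, 1 was at least 1.5-fold higher in GFP+ cells (background 3.55%) and 2 were lower (background 1.74%). Xaf1, an antagonist of the apoptosis inhibitor XIAP, was at 50.7 CPM in GFP+ and 32.3 CPM in GFP- myogenic cells, a ratio of 1.57 (1.42 to 1.74). This call was lost when every cell was weighted equally and without the 10% of cells highest for the list, and 43 of its 534 GFP+ UMIs lay in a single cell. Ifitm1, another membrane protein that blocks entry, was at 11.6 CPM in GFP+ and 24.9 CPM in GFP- cells, a ratio of 0.465 (0.382 to 0.561). The RNA-binding Ifit1 was at 10.8 CPM in GFP+ and 16.8 CPM in GFP- cells, a ratio of 0.645 (0.524 to 0.787), and 66 of its 702 GFP- UMIs lay in a single cell. Ifit1 was no longer called without the 10% of cells highest for the list, with at most 5% mitochondrial UMIs, or with median-ratio scaling. Gbp2, a guanylate-binding GTPase, had the third lowest ratio, 0.707 (0.572 to 0.867). The median log2 ratio of the members that passed was -0.07, beside -0.09 over all genes that passed, so the list as a whole lay where other genes lay.

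By role, the factors stood highest in GFP+ over GFP- myogenic cells, carried by Irf7 and Irf1, and their ratio varied by state. Stat2, Irf9, Irf7 and Irf1, the 4 transcription factors, summed to 89.5 CPM in GFP+ and 70.3 CPM in GFP- cells, a ratio of 1.27 (1.18 to 1.37). Stat2 was at 12.9 CPM in GFP+ and 12.8 CPM in GFP- cells, and Irf9 at 19.8 and 17.7 CPM. Irf7, which drives the later interferon alpha genes, was at 20.3 CPM in GFP+ and 13.8 CPM in GFP- cells, a ratio of 1.48 (1.26 to 1.73). Irf1, an early target of interferon gamma, was at 36.5 CPM in GFP+ and 25.9 CPM in GFP- cells, a ratio of 1.41 (1.25 to 1.58). Neither reached 1.5-fold, but Irf7 did with median-ratio scaling, and Irf1 did with cells weighted equally and without the 10% of cells highest for the list. In GFP+ cells a single cell held 18 of the 214 Irf7 UMIs, and a single cell held 25 of the 384 Irf1 UMIs. The factors' ratio was 1.45 (1.31 to 1.61) in Pax7-positive and 1.38 (1.12 to 1.69) in cycling cells, but 0.834 (0.628 to 1.09) in Myog-positive and 0.836 (0.712 to 0.977) in the remaining cells, classes that are defined where the states are described. The Myog-positive interval holds 1. The 10 type I effectors had a summed ratio of 1.08 (1.03 to 1.14), the 6 sensors 0.968 (0.903 to 1.04), the 6 GTPases 0.908 (0.849 to 0.9695) and the 4 membrane proteins 0.946 (0.9303 to 0.962). Of the members under the filter, Oas1a, which makes the activator of RNase L, had 28 UMIs in GFP+ and 32 UMIs in the larger GFP- group, a ratio of 3.48 (2.02 to 5.96). In GFP+ cells 7 of these UMIs lay in a single cell. Dhx58, a regulator of RNA sensing, had 60 UMIs in GFP+ and 133 UMIs in GFP- cells, a ratio of 1.79 (1.298 to 2.45).

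**Figure D1:**
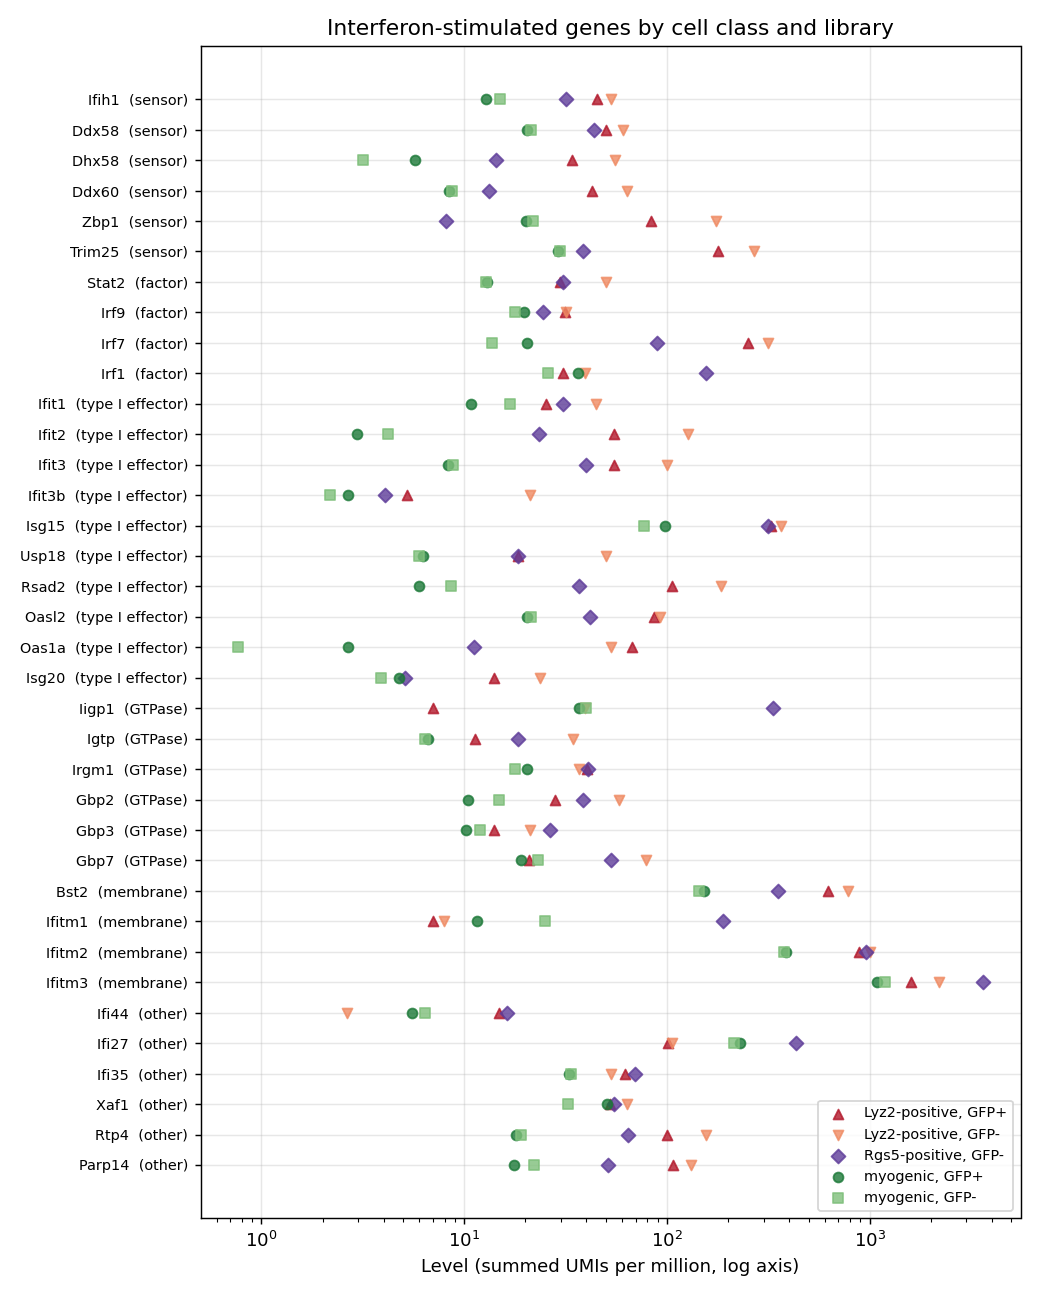
Level of each of the 36 members in CPM (log axis, to be read along each row and not between genes) in Lyz2-positive, Rgs5-positive and myogenic cells of each library, 1 point a group. The myogenic points of both libraries lie close together in most rows, as for Ddx58 at 20.4 CPM in GFP+ and 21.4 CPM in GFP- cells, while Lyz2-positive and Rgs5-positive points lie mostly to their right.

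In Lyz2-positive cells, interferon-stimulated genes were higher than in myogenic cells of the same library. The list summed to 5199 CPM in GFP+ Lyz2-positive cells, against 2442 CPM in GFP+ myogenic cells, a ratio of 2.13 (2.07 to 2.19). For GFP- cells it summed to 6936 CPM in Lyz2-positive cells, against 2491 CPM in myogenic cells, a ratio of 2.78 (2.68 to 2.89). At least 1.5-fold higher in GFP+ Lyz2-positive cells were 25 of the 32 members that passed (background 26%), and 2 were lower (background 42.6%). Among GFP- cells 32 of 35 were higher (background 29.4%) and 2 were lower (background 42.3%). The median log2 ratio of the members was 1.49 in the GFP+ and 2.11 in the GFP- library, beside -0.32 and -0.22 over all genes that passed.

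Type I effectors and Irf7 had the highest ratios between these classes. Oas1a was at 67.2 CPM in Lyz2-positive and 2.66 CPM in myogenic GFP+ cells, a ratio of 25.3 (16.2 to 40.5), and at 52.7 CPM in Lyz2-positive and 0.765 CPM in myogenic GFP- cells, a ratio of 68.9 (37.4 to 124). Ifit2, a relative of Ifit1, had ratios of 18.7 (11.97 to 29.7) in the GFP+ and 30.1 (21.4 to 41.6) in the GFP- library. Rsad2 (viperin), which makes a chain-terminating nucleotide, had ratios of 17.7 (12.9 to 24.3) and 21.5 (16.4 to 27.8). Among GFP- Lyz2-positive cells a single cell held 30 of the 70 Rsad2 UMIs, and a single cell held 19 of the 48 Ifit2 UMIs. Among GFP+ Lyz2-positive cells the highest cell held 23 of the 121 Rsad2 UMIs, and for Ifit2 14 of 63. Irf7 was at 249.8 CPM in Lyz2-positive and 20.3 CPM in myogenic GFP+ cells, a ratio of 12.3 (10.3 to 14.7), and at 314 CPM in Lyz2-positive and 13.8 CPM in myogenic GFP- cells, a ratio of 22.8 (18.5 to 27.8). All type I effectors that passed were at least 1.5-fold higher, 8 in the GFP+ and 10 in the GFP- library, and so were all 6 sensors in each. Members low in myogenic cells, such as Oas1a, Ifit2 and Dhx58, could pass the filter only by being high in Lyz2-positive cells. Their calls were thus set by the filter and are no result of their own.

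A few members went the other way. Ifi27 was at 101 CPM in Lyz2-positive and 229 CPM in myogenic GFP+ cells, a ratio of 0.442 (0.363 to 0.532), and had a ratio of 0.493 (0.352 to 0.672) in the GFP- library. Iigp1, an immunity-related GTPase that acts on parasite vacuoles, had 8 UMIs in GFP+ Lyz2-positive cells and a ratio of 0.191 (0.0817 to 0.379), while in the GFP- library it had 15 UMIs in Lyz2-positive cells and a ratio of 0.9903 (0.553 to 1.64). Ifitm1 had 3 UMIs in GFP- Lyz2-positive cells and a ratio of 0.317 (0.0653 to 0.929). The GTPases as a group had ratios of 1.17 (0.977 to 1.401) in the GFP+ and 2.36 (1.92 to 2.87) in the GFP- library (without Iigp1, 1.71 and 3.098), and the type I effectors 4.68 (4.31 to 5.08) and 7.097 (6.401 to 7.85), so the roles differed in how far they stood apart between classes.

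Lyz2-positive cells of the GFP+ fraction had lower levels than those of the GFP- fraction. The list ratio was 0.7497 (0.716 to 0.785), and 17 of the 34 members that passed were at least 1.5-fold lower (background 21.8%) and 0 were higher (background 12.4%). Iigp1 was at 6.99 CPM in GFP+ and 39.5 CPM in GFP- Lyz2-positive cells, a ratio of 0.177 (0.0649 to 0.444). Gbp7, a guanylate-binding protein, was at 20.96 CPM in GFP+ and 79.1 CPM in GFP- cells, a ratio of 0.265 (0.148 to 0.469). Ifit3b had 6 UMIs in GFP+ and 8 UMIs in GFP- cells, 4 of the latter in a single cell, a ratio of 0.248 (0.0711 to 0.817). Iigp1 and Ifit3b passed the filter only through GFP- cells. Their calls, which count among those given, were thus set by the filter and are no result of their own. Oas1a, Ifi35 and Irgm1 had the highest ratios, 1.28 (0.772 to 2.203), 1.18 (0.708 to 2.04) and 1.09 (0.588 to 2.14), all with intervals that hold 1. These groups are 73 and 47 cells with median depths of 13545 and 7808 UMIs, and the part of depth was not tested.

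Rgs5-positive cells, found in the GFP- library alone, had the highest summed level of the 5 groups when all members were counted. Without Ifitm2, Ifitm3 and Bst2 the order turned, with 2362 CPM in Rgs5-positive and 2960 CPM in GFP- Lyz2-positive cells, a ratio of 0.798 (0.743 to 0.858), against 1.05 (1.01 to 1.10) with all members. The list summed to 7299.8 CPM in Rgs5-positive cells, against 2491 CPM in GFP- myogenic cells, a ratio of 2.93 (2.86 to 3.001). Of the 32 members that passed, 29 were at least 1.5-fold higher (background 29.1%) and 1 was lower (background 19%), with a median log2 ratio of 1.27, beside 0.11 over all genes that passed. Iigp1 was at 332 CPM in Rgs5-positive and 39.9 CPM in myogenic cells, a ratio of 8.32 (7.37 to 9.38). Its UMIs were concentrated: 60 of 326 lay in a single Rgs5-positive cell, and 35 of the 102 cells had any. Ifitm1 was at 189 CPM in Rgs5-positive and 24.9 CPM in myogenic cells, a ratio of 7.56 (6.43 to 8.85), and Irf7 had a ratio of 6.51 (5.14 to 8.16). Irf1 was at 156 CPM in Rgs5-positive and 25.9 CPM in myogenic cells, a ratio of 6.01 (5.04 to 7.13). Zbp1, a sensor of Z-form nucleic acids, was at 8.15 CPM in Rgs5-positive and 21.9 CPM in myogenic cells, a ratio of 0.372 (0.1599 to 0.735), and Trim25 and Irf9 had the next lowest ratios, 1.31 (0.922 to 1.81) and 1.38 (0.879 to 2.07).

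Set against Lyz2-positive cells of the same library, Rgs5-positive cells had fewer sensor and type I effector transcripts, while GTPases and membrane proteins were mixed. GTPases were at 509.7 CPM in Rgs5-positive and 269 CPM in Lyz2-positive cells, a ratio of 1.895 (1.53 to 2.37), which Iigp1 carried: of the 6 GTPases 1 was at least 1.5-fold higher and 1 lower, and without Iigp1 they were at 177 CPM in Rgs5-positive and 229 CPM in Lyz2-positive cells, a ratio of 0.773 (0.595 to 1.01). Membrane proteins had a summed ratio of 1.29 (1.21 to 1.36), with 2 of the 4 higher (Ifitm1 and Ifitm3) and Bst2 lower. Sensors were at 149.8 CPM in Rgs5-positive and 675 CPM in Lyz2-positive cells, a ratio of 0.222 (0.1800 to 0.273), and type I effectors had a ratio of 0.494 (0.433 to 0.564). At least 1.5-fold higher in Rgs5-positive cells were 5 of 35 members (background 43.4%): Ifitm1, Iigp1, Ifi27, Irf1 and Ifitm3, with ratios of 23.8, 8.404, 4.099, 3.94 and 1.66. Ifitm1 rests on 185 UMIs in Rgs5-positive and 3 UMIs in Lyz2-positive cells, with an interval of 8.03 to 117. In the other direction 19 members were lower (background 24.4%). Zbp1, Trim25 (a ubiquitin ligase that activates the RNA sensor RIG-I) and Ifit2 had the lowest ratios, 0.0469 (0.0194 to 0.0979), 0.144 (0.0965 to 0.211) and 0.185 (0.108 to 0.311).

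Over single myogenic cells the summed list was graded, and no gap parted cells with it from cells without it. Each cell was thinned at random to 5000 UMIs, which left 457 GFP+ and 2326 GFP- myogenic cells and dropped 30 and 63 shallower ones. A GFP+ cell then held a mean of 12.3 member UMIs (SD 11.4) and a GFP- cell 12.5 (SD 9.86). The median was 9 UMIs in GFP+ and 10 UMIs in GFP- cells, the 90th percentile 24 and 23 UMIs, and the highest cell 115 and 114 UMIs. Cells with no member UMI numbered 3 (0.656%) in the GFP+ and 6 (0.258%) in the GFP- library. The variance was 10.6 times the mean in GFP+ and 7.76 times in GFP- cells, where counting error alone would give 1. The 10% of cells with the highest sums held 29.3% of the list's UMIs in the GFP+ and 27.6% in the GFP- library.

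**Figure D2:**
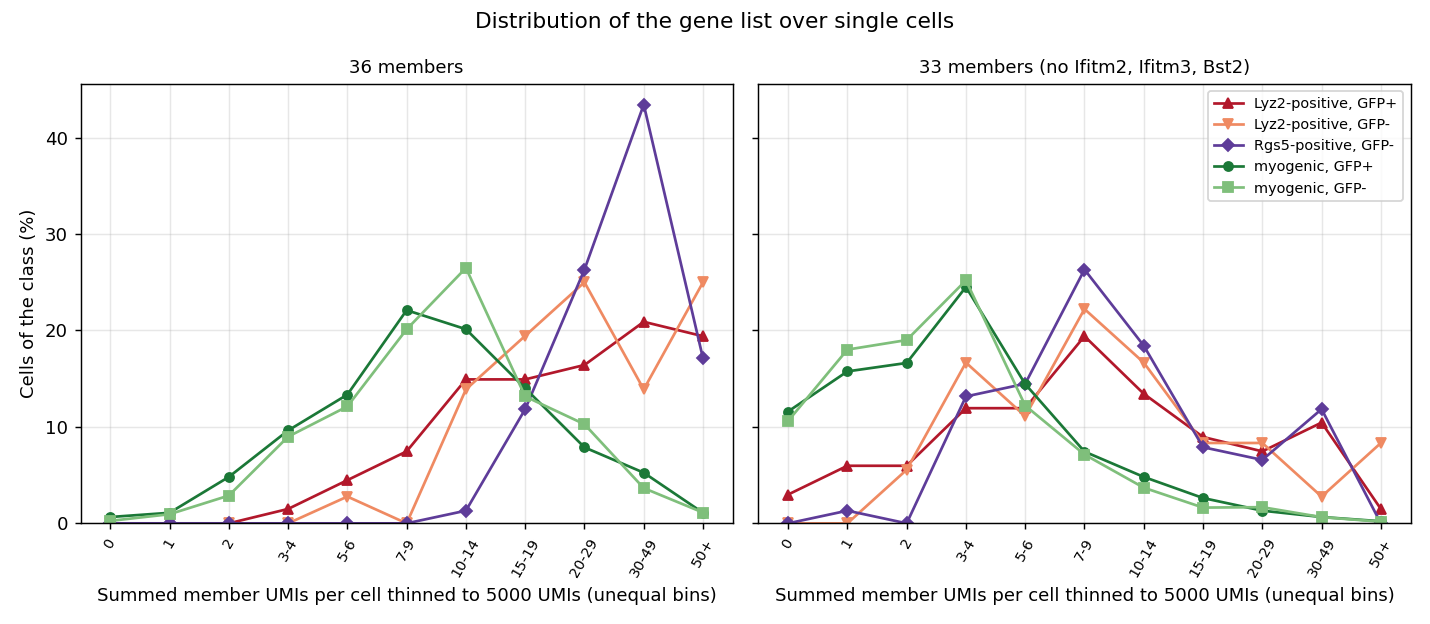
Share of cells (percent of the class) by summed member UMIs per cell thinned to 5000 UMIs, for all 36 members and without Ifitm2, Ifitm3 and Bst2, with 1 line a class and library. Myogenic cells of both libraries form a single hump with a long right tail, with 20.1% of GFP+ and 26.5% of GFP- myogenic cells in the bin that starts at 10 UMIs.

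The smooth sum joined members that were spread differently. Ifitm2 and Ifi27 lay over cells nearly as evenly as counting error allows, with a variance over mean of 1.22 and 1.34 in GFP+ and 1.26 and 1.37 in GFP- myogenic cells. Ifitm3 was intermediate, with 4.78 in GFP+ and 3.73 in GFP- cells. The 10 type I effectors were far more uneven. None of their UMIs was seen in 74.2% of GFP+ and 76.1% of GFP- myogenic cells at this depth, while the 39 GFP+ cells with 3 or more held 72.1% of them and the 164 such GFP- cells held 71.5%. Their summed level was 162 CPM in GFP+ and 149.7 CPM in GFP- myogenic cells, against 176 and 138 CPM in empty droplets. Among Lyz2-positive cells 26.9% of GFP+ and 33.3% of GFP- cells had none, and among Rgs5-positive cells 32.9%.

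Most members were higher in the same cells. Each member was compared between the 10% of myogenic cells with the highest sum of the other members and the remaining cells, so that its own counts did not choose the cells. Ifit3, a relative of Ifit1, stood highest: GFP- cells had 85 UMIs in 231 top and 4 UMIs in 2095 other cells, a ratio of 193 (72.6 to 724). For GFP+ cells it had 17 UMIs in 41 top and 1 UMI in 416 other cells, a ratio of 172 (27.03 to 7209). Isg15, a ubiquitin-like protein attached to other proteins, was at 577 CPM in top and 34.9 CPM in other GFP+ cells, a ratio of 16.6 (12.3 to 22.4). It was at 491 CPM in top and 36.7 CPM in other GFP- cells, a ratio of 13.4 (11.7 to 15.3). Ifit1 was 27.2-fold (11.7 to 70.6) higher in GFP+ and 36.7-fold (25.9 to 53.01) higher in GFP- top cells. Usp18, the protease that removes ISG15 and dampens the receptor, was 28.7-fold (8.49 to 123) and 33.9-fold (18.9 to 64.5) higher. Ifi44 had 10 UMIs in top and 0 UMIs in other GFP+ cells, at least 32.9-fold higher against a floor of 3 counts over the other cells (22.1-fold is the exact lower limit with the error of both counts), and was 18.8-fold (11.8 to 30.6) higher in GFP- top cells.

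At the other end stood members that followed the rest little. Ifi27 was 1.32-fold (1.01 to 1.696) higher in GFP+ and 1.16-fold (1.03 to 1.32) higher in GFP- top cells, and Ifitm2 1.46-fold (1.19 to 1.78) and 1.22-fold (1.11 to 1.34). Irf1 was 1.45-fold (0.724 to 2.67) and 1.77-fold (1.29 to 2.402) higher, and Trim25 2.02-fold (1.01 to 3.72) and 1.34-fold (0.956 to 1.85), so the interval of Irf1 in GFP+ cells and that of Trim25 in GFP- cells hold 1. Between these ends lay Ifitm3 at 3.09-fold (2.81 to 3.39) and 2.27-fold (2.17 to 2.37), Iigp1 at 8.79-fold (5.79 to 13.3) and 7.56-fold (6.34 to 8.996), and Bst2 (tetherin, which holds budding virus on the membrane) at 8.601-fold (6.86 to 10.8) and 4.42-fold (3.98 to 4.91). Of genes outside the list that passed, 13.5% were at least 1.5-fold higher and 20.8% lower in the GFP+ top cells by the whole list's sum, and 3% and 5.86% in the GFP- top cells.

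**Figure D3:**
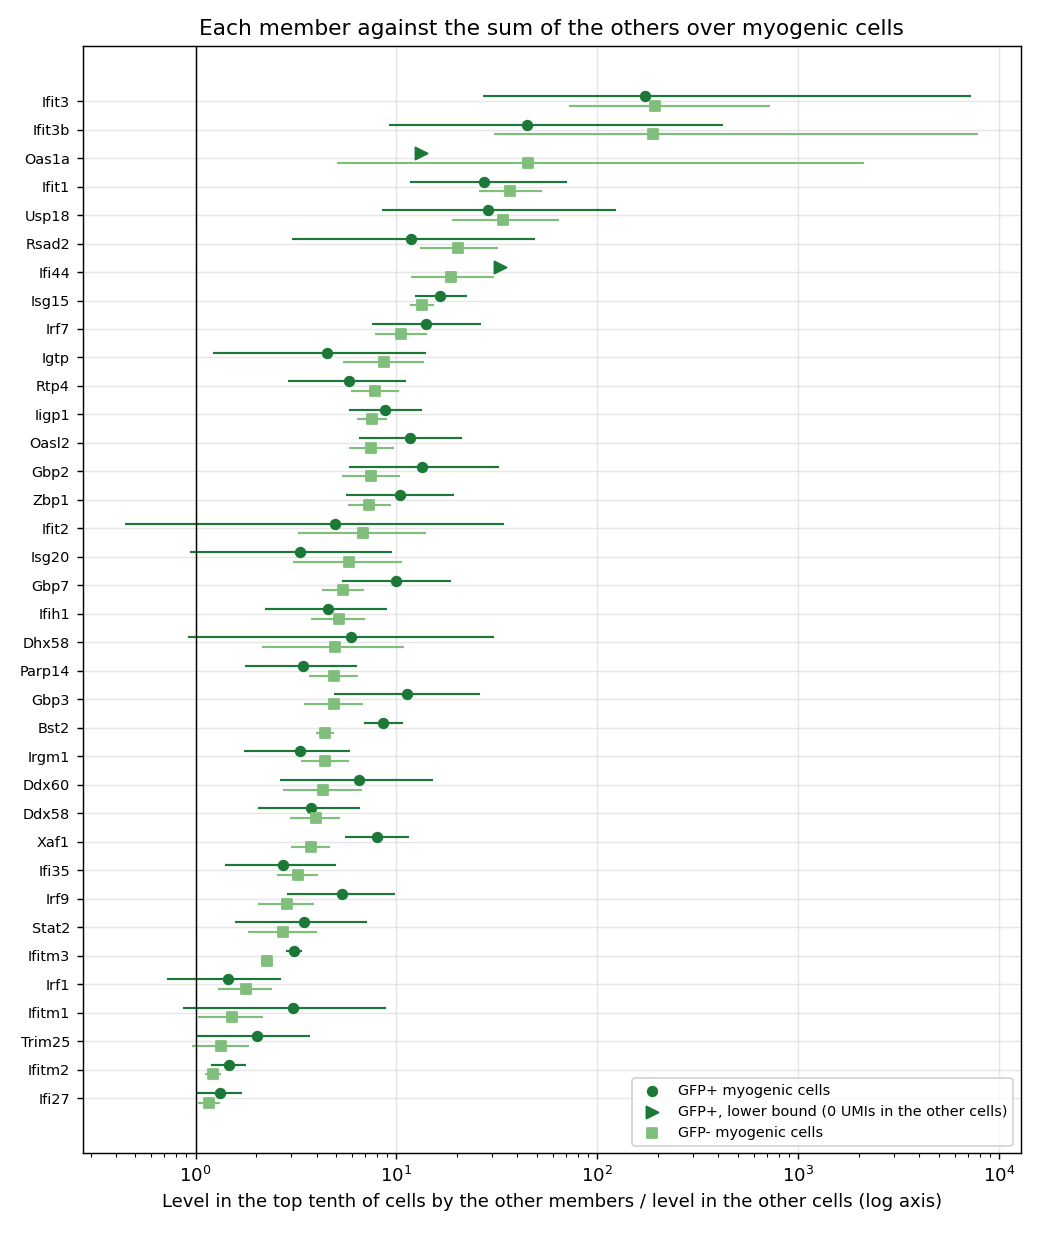
Ratio (log axis) of each member's level in the 10% of myogenic cells with the highest sum of the other members over its level in the remaining cells, for GFP+ and GFP- cells, with bars for 95% counting intervals and arrowheads for lower bounds. Ratios span from Ifit3 at 172 in GFP+ and 193 in GFP- cells to Ifi27 at 1.32 and 1.16.

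The cells highest for the whole list had the depth of other myogenic cells. Their median was 21318 UMIs, against 21113 UMIs in other GFP+ cells, and 15716 UMIs, against 15520 UMIs in other GFP- cells. The 10 macrophage markers summed to 10.3 CPM in top and 17.3 CPM in other GFP+ cells, and to 11.5 CPM in top and 8.09 CPM in other GFP- cells. Myog, a factor of muscle differentiation, was at 776 CPM in top and 1032 CPM in other GFP+ cells, and at 239 CPM in top and 875 CPM in other GFP- cells. The top cells began at 26 UMIs in GFP+ and 24 UMIs in GFP- cells. At this limit 4 GFP+ and 23 GFP- cells lay just inside and 4 and 26 just outside, and the top cells are a range of this sum set by the 10% limit.

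Type I effectors and GTPases overlapped in part over the cells. The 9 type I effectors other than Isg20 reached 3 UMIs in 37 of 457 GFP+ myogenic cells (8.096%, exact binomial interval 5.76 to 10.99) and in 162 of 2326 GFP- cells (6.96%, 5.96 to 8.08). The 6 GTPases reached 3 UMIs in 26 GFP+ cells (5.69%, 3.75 to 8.23) and 147 GFP- cells (6.32%, 5.37 to 7.39). Both groups did so in 12 GFP+ cells, which is 32.4% of the type I cells and 46.2% of the GTPase cells, and in 61 GFP- cells, which is 37.7% and 41.5%. Of the type I cells, 12 GFP+ and 40 GFP- cells had no GTPase UMI, and of the GTPase cells 8 and 47 had no type I UMI. Over all thinned myogenic cells, 72.2% of GFP+ and 71.8% of GFP- cells had no GTPase UMI. No UMI of the 10 type I effectors, Isg20 included, was seen in 74.2% and 76.1%. Near the threshold, 4 GFP+ and 41 GFP- cells had exactly 3 type I UMIs, and 22 and 90 cells had 2. In Rgs5-positive cells each group reached 3 UMIs in 24 of 76 cells, and 15 cells had both.

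Genes outside the list with 10 CPM or more over all thinned GFP- myogenic cells were ranked by their ratio in the cells highest for the whole list. Cxcl10, a chemokine that draws activated T cells, came first. It had 509 UMIs in top and 114 UMIs in other GFP- cells, a ratio of 40.3 (32.8 to 49.8), and 13 UMIs in top and 8 UMIs in other GFP+ cells, a ratio of 16.1 (6.17 to 44.7). Among the next were Ly6a, Herc6 (the mouse ligase that attaches ISG15), Ccl5, Rnf213, Tor3a, Ube2l6 (the ISG15-conjugating enzyme), Apol9b, Samd9l, Eif2ak2 (the RNA-activated kinase PKR) and Tap1 (the peptide transporter of MHC class I), with ratios from 5.46 down to 3.61 in GFP- cells. Ly6a, Herc6, Ccl5, Ube2l6 and Apol9b passed the limit only through the top cells. In the other GFP- cells they were at 7.74, 8.60, 7.74, 7.64 and 8.50 CPM. High ratios of such genes are in part a condition of being listed. In GFP+ cells 11 of the 12 genes ranked highest were also higher in top cells, and Ccl5 had 0 UMIs in top and 2 UMIs in other cells. All 409 unthinned Ccl5 UMIs of GFP- myogenic cells lay in 40 of 2389 cells.

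Across myogenic states, the sum of all members was lowest in Myog-positive cells. Thinned cells were called cycling by proliferation genes, then Myog-positive (2 or more UMIs), then Pax7-positive (1 or more UMIs of the stem cell factor), and the rest were kept as remaining. The members summed to 1429 CPM in 63 Myog-positive and 2656 CPM in 242 Pax7-positive GFP+ cells, and to 1609 CPM in 388 Myog-positive and 2678 CPM in 972 Pax7-positive GFP- cells. In cycling and remaining cells they summed to 2621 and 2617 CPM (GFP+) and to 2312.5 and 3060 CPM (GFP-). Without Ifitm2, Ifitm3 and Bst2, GFP- Myog-positive and cycling cells lay close, at 572 CPM (555 to 590) and 588 CPM (573 to 603). In GFP+ cells these levels were 585 and 776 CPM. Sensors were at 87.2 CPM in Myog-positive and 73.0 CPM in cycling GFP- cells, so not every role was lowest in Myog-positive cells. Among GFP+ cells 15 of 22 members were at least 1.5-fold lower in Myog-positive than in Pax7-positive cells (background 26.1%) and 1 was higher (background 17.5%). Among GFP- cells 20 of 25 were lower (background 18.5%) and 0 were higher (background 12.6%). The median log2 ratios were -1.19 in GFP+ and -1.002 in GFP- cells, beside -0.07 and -0.06 over all genes that passed.

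Iigp1 had the lowest ratio in both libraries. It was at 1.16 CPM in Myog-positive and 56.2 CPM in Pax7-positive GFP+ cells, a ratio of 0.0207 (0.00249 to 0.0755) that rests on 2 UMIs in Myog-positive cells, and its GFP- ratio was 0.289 (0.237 to 0.351). Parp14, a mono-ADP-ribosyltransferase, had ratios of 0.0985 (0.0314 to 0.236) in GFP+ and 0.3597 (0.276 to 0.464) in GFP- cells, and Gbp7 of 0.176 (0.0741 to 0.359) and 0.323 (0.249 to 0.413). In GFP+ Myog-positive cells Parp14 had 5 UMIs and Gbp7 8 UMIs. Iigp1, Parp14 and Gbp7 passed the filter in GFP+ cells only through Pax7-positive cells, so their GFP+ calls were set by the filter. The same held for Stat2 and Ifit1 in GFP+ and for Gbp3 in GFP- cells. Irf1 was at 10.5 CPM in Myog-positive and 59.8 CPM in Pax7-positive GFP+ cells, a ratio of 0.175 (0.102 to 0.282), and had a ratio of 0.403 (0.319 to 0.505) in GFP- cells. Ifitm3 was at 479.9 CPM in Myog-positive and 1158 CPM in Pax7-positive GFP+ cells, and at 672 CPM in Myog-positive and 1217 CPM in Pax7-positive GFP- cells. A few members did not share this direction. Ddx60, a helicase linked to RNA sensing, had ratios of 1.58 (0.915 to 2.67) in GFP+ and 1.28 (0.963 to 1.69) in GFP- cells, both with intervals that hold 1, and Trim25 had 1.303 (0.945 to 1.78) and 1.38 (1.19 to 1.61). Bst2 had 1.17 (1.01 to 1.36) and 0.988 (0.914 to 1.07), and Xaf1 1.199 (0.927 to 1.54) and 0.9896 (0.8503 to 1.15).

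**Figure D4:**
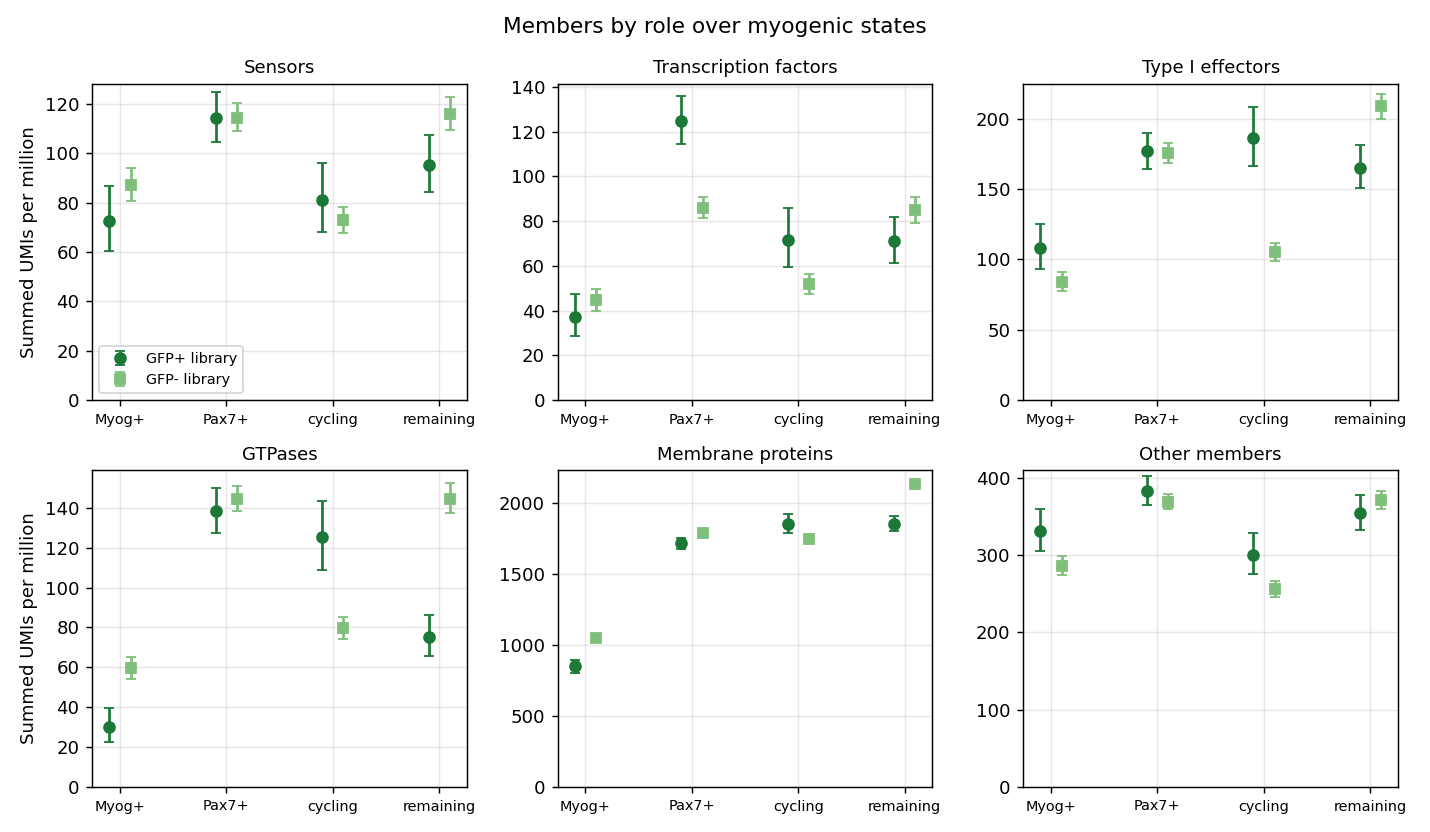
Summed level (CPM) of the members by role in Myog-positive, Pax7-positive, cycling and remaining myogenic cells of the GFP+ and GFP- libraries, with bars for 95% counting intervals. Factors were at 37.2 CPM in Myog-positive and 125 CPM in Pax7-positive GFP+ cells, and GTPases at 30.2 and 138 CPM.

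Within states the sorted fractions differed in ways that their sum did not show. Among Pax7-positive cells Irf1 was at 59.8 CPM in GFP+ and 31.3 CPM in GFP- cells, a ratio of 1.91 (1.63 to 2.23), while among remaining cells its ratio was 0.684 (0.505 to 0.913). Among cycling cells the type I effectors were at 186 CPM in GFP+ and 105 CPM in GFP- cells, a ratio of 1.77 (1.56 to 2.02), and Isg15 alone had a ratio of 2.17 (1.84 to 2.54). Isg15 gave 208 of the 312 type I UMIs of GFP+ cycling cells. Over all GFP+ myogenic cells, 90 of its 1027 UMIs lay in a single cell. GTPases were at 30.2 CPM in GFP+ and 59.4 CPM in GFP- Myog-positive cells, a ratio of 0.509 (0.374 to 0.6798), and among remaining cells their ratio was 0.521 (0.449 to 0.603). Ifitm1 was lower in GFP+ than in GFP- cells in each of the 4 states, with ratios of 0.382 to 0.516, and Xaf1 was higher in each, with ratios of 1.25 to 2.29. Whether ratios differ between states cannot be tested with 1 library a fraction, and the 42 cycling and 63 Myog-positive GFP+ cells are few.

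The wider pathway was described with 41 further genes. Of 8 interferon genes, 7 had 0 UMIs in myogenic cells of both libraries, which allows up to 0.285 CPM in GFP+ and 0.0717 CPM in GFP- cells. Ifnb1 had 0 UMIs in GFP+ and 4 UMIs in GFP- myogenic cells, all in a single cell, and 7 UMIs in GFP+ Lyz2-positive cells, also in 1 cell. The receptor genes were detected in myogenic cells, with Ifnar1 at 26.2 CPM in GFP+ and 26.5 CPM in GFP- cells, Ifnar2 at 46.2 and 48.7 CPM, Ifngr1 at 52.1 and 47.01 CPM and Ifngr2 at 35.04 and 34.2 CPM. Between GFP+ and GFP- myogenic cells, 1 of the 20 pathway genes that passed was at least 1.5-fold higher (background 3.55%) and 1 lower (background 1.74%). Socs3, an inhibitor of cytokine receptors, was at 282 CPM in GFP+ and 170.4 CPM in GFP- cells, a ratio of 1.66 (1.59 to 1.73). Cxcl10 was at 11.02 CPM in GFP+ and 58.9 CPM in GFP- cells, a ratio of 0.187 (0.154 to 0.225), and 261 of its 2465 GFP- UMIs lay in 1 cell.

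In Lyz2-positive over myogenic cells, 18 of 25 pathway genes were at least 1.5-fold higher (background 26%) and 2 lower (background 42.6%) in the GFP+ library. In the GFP- library 21 of 27 were higher (background 29.4%) and 3 lower (background 42.3%). The receptor genes Ifnar1, Ifnar2, Ifngr1 and Ifngr2 were all higher, with ratios of 3.74 to 4.44 in the GFP+ and 3.93 to 5.87 in the GFP- library. Tlr7, an RNA sensor of endosomes, had 66 UMIs in Lyz2-positive and 0 UMIs in myogenic GFP+ cells, and 22 UMIs in Lyz2-positive and 2 UMIs in myogenic GFP- cells. Socs1, the inhibitor of JAK kinases, went the other way, with 7 UMIs in Lyz2-positive and 351 UMIs in myogenic GFP+ cells, a ratio of 0.183 (0.0732 to 0.382). Among GFP- cells it had 0 UMIs in Lyz2-positive cells, which allows up to 7.91 CPM, and was at 26.4 CPM in myogenic cells. In Rgs5-positive over GFP- myogenic cells, 13 of 21 pathway genes were higher (background 29.1%) and 0 lower (background 19%), with Ifngr2 at a ratio of 3.97 (3.29 to 4.74), Ifnar2 at 2.49 (2.05 to 2.999) and Myd88, an adaptor of Toll-like receptors, at 6.25 (4.75 to 8.11). Ifnar1 and Ifngr1 had ratios of 0.9995 (0.65 to 1.47) and 0.824 (0.581 to 1.14) there.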

How the data were processed

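The deposited matrices are raw counts of UMIs, with every barcode included and no filter on cells. The matrices were written by Cell Ranger 4, per the file headers, and mm10, Cell Ranger and Seurat are named in the submitters' processing notes; the counting settings and annotation release were not given in these sources. The libraries held 13928952 (GFP+) and 49709323 (GFP-) UMIs. Members, lists, gates and states were chosen with earlier results of these data known.

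UMIs were summed per class and scaled to CPM. Ratios have exact conditional (Clopper-Pearson) 95% intervals, levels exact Poisson ones, and all cover counting error only. A gene was compared where the mean CPM of both groups was at least 10, and called at 1.5-fold. A gene low in a group could pass only by being high in the other, which set its call, for members and background alike. Each cell was thinned to 5000 UMIs (seed 11) for distributions and states. Cells over 2 gates (0 GFP+, 13 GFP-) and under every gate (44 and 132) were left out. Cycling meant at least 2 summed UMIs of Mki67, Top2a, Cenpf and Birc5. Scrublet in scanpy 1.11.5 called 3 GFP+ (0.497%) and 3 GFP- cells (0.112%) as doublets; in effect it removed none, and calls were kept. The calculations were tested on simulated counts with Python 3.11.15, numpy 2.4.6, scipy 1.17.1 and pandas 2.3.3, and plots were drawn with matplotlib 3.10.9. Gene positions came from GENCODE M21.

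By the rule for named genes, every member is counted, and values are given for members with the highest levels, the 3 highest and 3 lowest ratios of a comparison, members under the filter, pathway genes past the fold and the 12 genes outside the list with the largest ratios in the highest 10% of GFP- cells. Where such genes were many, the text gives counts with examples, and these and a few other genes were chosen after their values were seen. The values of 1 pathway gene are not reported here.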

Additional observations from a re-analysis of the deposited data

How the results depend on the processing

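Each of 14 results was recomputed under the alternatives that bear on it: of 94 values 70 stayed within the tolerance, 22 moved beyond it and 2 reversed. The tolerance was the 95% counting interval for levels and ratios, which is narrow, 0.1 for the median log2 ratio, and 1.5 times for counts of members and for the variance over mean, which is wide. With at most 5% mitochondrial UMIs the GFP- myogenic list level was 2591 CPM and 1 member was lower in GFP+ cells. Giving cells over 2 gates to the Lyz2 or Rgs5 class made the GFP- Lyz2-positive ratio 2.31 and the Rgs5-positive ratio 2.70. Without Ifitm2, Ifitm3 and Bst2 the list was at 817.6 CPM in GFP+ and 786.0 CPM in GFP- myogenic cells, the Lyz2-positive ratios were 2.57 and 3.77, and the Rgs5-positive ratio 3.005, while Rgs5-positive over GFP- Lyz2-positive cells turned to 0.798. Without Iigp1 the GTPase ratio of Rgs5-positive over Lyz2-positive cells turned to 0.773. Members called higher in GFP+ over GFP- myogenic cells numbered 2 with median-ratio scaling, 3 with no filter, 2 with cells weighted equally and 0 at a fold of 2. Irf7 was gained with median-ratio scaling. Xaf1 was lost with cells weighted equally, where Irf1 and Irgm1 were called, and without the 10% of cells highest for the list, where Irf1 was called. Ifitm1 was called lower under every alternative run. Members called lower numbered 1 with median-ratio scaling, 1 without the highest 10% of cells and 1 at a fold of 2. Median-ratio scaling also took the median log2 ratio of the members to 0.02, above 0, while it stayed below 0 under each other alternative that gives it. Without these cells the list was at 1902 CPM in GFP+ and 2039 CPM in GFP- myogenic cells, which follows from leaving out the highest cells. Thinning to 3000 UMIs gave a variance over mean of 6.19 and 5.055, which falls with depth by construction. Thresholds of 2000 UMIs, gates at 3 or 10 UMIs and removal of scrublet calls moved none of the 10 results recomputed under them. For the other moved values the cause was not tested. The alternatives for the Rgs5-positive ratios and for Iigp1 were chosen after seeing the data. No paired analysis was possible because each fraction is 1 library and the labels give no replicate numbers. Small classes (36 thinned GFP- Lyz2-positive cells) limit the precision, and 1 library a fraction gives no replicate error.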
